A study of Mus musculus with 6 samples.

Results

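The miRNAs of the imprinted Dlk1-Dio3 domain, a large cluster of miRNA genes in the mouse, were examined in fibrotic and control livers. They were chosen by name: every mouse miRNA on the array whose number is 1 of 46 linked to this domain was taken, with any letter and either arm of the hairpin. This gave 98 of the 1247 miRNAs on the array, which come from 50 hairpins. In the RefSeq gene table of assembly GRCm38.p6, 97 of the 98 lie between Dlk1 and Dio3 on chromosome 12, where the table holds 61 miRNA genes in all. The remaining one, miR-496b, lies on chromosome 19. The cluster was selected because its detection on the array of CCl4 replicate 3 was already known. All levels and counts of its miRNAs are therefore given as descriptions, without a test. Where a fit over the whole array gave a p for one of them, that outcome is a description as well.

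Liver RNA was taken from male C57BL/6 mice, and the labels name no altered gene in either group. The CCl4 group (n = 3) received carbon tetrachloride, a solvent that injures hepatocytes and leads to fibrosis, at 0.6 mL/kg of body weight in corn oil by intraperitoneal injection. The control group (n = 3) received the same volume of corn oil without CCl4. Mice of both groups were 7 weeks old at the first injection and received 2 injections per week during 10 weeks. Total RNA of each liver was labeled with a single dye and hybridized to its own array, and the total signal of a miRNA is the background-subtracted intensity of its spots as the scanner software gives it, on a linear scale and not normalized between arrays. The software also calls each miRNA detected or not detected, and it sets an undetected total signal to 0.1. Signals of different miRNAs come from different probes, so their order is an order of signals and not of amounts of RNA. As whole liver was used, fewer cells of a type and less RNA per cell cannot be told apart.

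Dlk1, Rtl1 and Dio3 are protein-coding genes expressed from the paternal chromosome. The maternal chromosome instead produces a series of long noncoding RNAs, named Meg3, Rtl1 antisense, Rian and Mirg, and the miRNA hairpins lie within or beside them. These miRNAs are abundant in the embryo, the placenta and the adult brain, and most other adult tissues hold little of them. The hairpins that lie antisense to the coding sequence of Rtl1 yield miRNAs that pair fully with the Rtl1 transcript and direct its cleavage, and several miRNAs of the group between miR-379 and miR-410 act on the dendrites of neurons.

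Mature sequences of 94 of the 98 miRNAs were found in the RefSeq table of assembly GRCm38.p6, and those of miR-376c-3p, miR-485-5p, miR-487b-3p and miR-539-3p were not. The sequences of the 12 miRNAs with the highest signals on the array of CCl4 replicate 3 are shown, together with miR-381-3p and miR-376b-3p, which are close copies of a member of that set. They are written 5′ to 3′, with the seed, bases 2 to 8, in capitals. The first group comes from hairpins antisense to Rtl1 and the rest from the group between miR-379 and miR-410.
miR-127-3p: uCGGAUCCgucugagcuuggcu
miR-434-3p: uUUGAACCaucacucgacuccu
miR-136-5p: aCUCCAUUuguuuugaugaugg
miR-154-5p: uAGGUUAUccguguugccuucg
miR-379-5p: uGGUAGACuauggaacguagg
miR-494-3p: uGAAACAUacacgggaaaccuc
miR-382-5p: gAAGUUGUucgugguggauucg
miR-410-3p: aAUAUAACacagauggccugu
miR-329-3p: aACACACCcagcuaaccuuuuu
miR-299b-5p: gGUUUACCgucccacauacau
miR-300-3p: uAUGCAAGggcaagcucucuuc
miR-381-3p: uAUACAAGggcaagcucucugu
miR-376a-3p: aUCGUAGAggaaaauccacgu
miR-376b-3p: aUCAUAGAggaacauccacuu

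The seeds of these miRNAs were nearly all different. Among the 94 sequences there were 87 seeds, and 7 of them were held by 2 miRNAs each, so the cluster is a group by position in the genome and not a seed family. Some neighbors are nevertheless close copies. Counted from 1 at the 5′ end, miR-300-3p and miR-381-3p differ by G4A, U21G and C22U, and miR-376a-3p and miR-376b-3p differ by G4A, A13C and G20U. In both pairs the change at position 4 lies inside the seed. miR-299b-5p differs in a more basic way from what its name implies. Its hairpin lies on the strand opposite to the other 46 hairpins of the cluster whose strand the hairpin table gives, overlapping Mir299a, and its 21 bases are contained in the 22 bases of miR-299a-5p, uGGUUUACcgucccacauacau, which has no entry of its own on the array. The signal listed for miR-299b-5p therefore cannot be told apart from that of miR-299a-5p.

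The array of CCl4 replicate 3 stood apart from the other 5 over all miRNAs, and the main counts, sums and changes are therefore given with and without it. Over the 166 miRNAs that every array detected, the 75th percentile of the signal was 723 there and 152 to 278 on the other arrays. The software detected 186 to 193 miRNAs on the corn oil arrays, 245 and 227 on the arrays of CCl4 replicates 1 and 2, and 334 on that of CCl4 replicate 3. Its rank correlation with the other CCl4 arrays was 0.860 and 0.856, while arrays within a group otherwise correlated at 0.979 or more. The 6 arrays shared 1 slide. As CCl4 samples filled its row 1 and corn oil samples its row 2, an effect of the row cannot be told apart from one of the treatment.

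Of the 98 cluster miRNAs, the software detected 2 in each corn oil liver. In the CCl4 livers it detected 2, 2 and 48. The same pair, miR-494-3p and miR-487b-3p, accounted for every detection outside CCl4 replicate 3. A further 46 miRNAs, 46.9% of the cluster, were detected on CCl4 replicate 3 alone, beside 8.90% of all 1247 miRNAs on the array. The remaining 50 miRNAs were detected on no array, which held for 70.7% of all miRNAs. No cluster miRNA showed any other pattern of detection. Of the 111 miRNAs on the whole array that were detected on CCl4 replicate 3 alone, 41.4% belonged to the cluster, and the other 65 came from the 1149 miRNAs outside it. Without CCl4 replicate 3, no cluster miRNA was detected in one group and not in the other.

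The total signals of the detected cluster miRNAs summed to 208, 198 and 203 in the corn oil group and to 268, 289 and 4923 in the CCl4 group. As a share of the detected signal these sums were 0.117%, 0.117% and 0.121% in corn oil livers and 0.151%, 0.166% and 1.56% in CCl4 livers. The groups did not overlap before scaling, but the CCl4 livers were far from alike, since 4600 of the 4923 units on CCl4 replicate 3 came from the 46 miRNAs detected there alone. On the log2 scale the mean sum was 1.84 higher in the CCl4 group, less than its SD in that group, 2.39. Scaling made this difference smaller, to 0.68 with each array set to its 75th percentile and 0.53 with quantile normalization, and the groups then overlapped. Without CCl4 replicate 3 the difference was 0.46, resting on miR-494-3p and miR-487b-3p only, and it turned to -0.18 and -0.22 with the same scalings.

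Because the software replaces an undetected total signal by 0.1, the probe signals were also summed without this replacement. The 96 cluster miRNAs that were undetected on the other 5 arrays had medians of -0.05, -0.09 and -0.02 on the corn oil arrays and of -0.12 and -0.05 on those of CCl4 replicates 1 and 2, with single values from -3.12 to 3.33. They thus lay around the level of the subtracted background. The choice of the 46 miRNAs by detection on CCl4 replicate 3 alone largely sets their summed signal highest there. Their single probes were less uniform, with 103 of the 112 probes highest on that array and all probes of 41 of the 46 miRNAs.

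**Figure D1:**
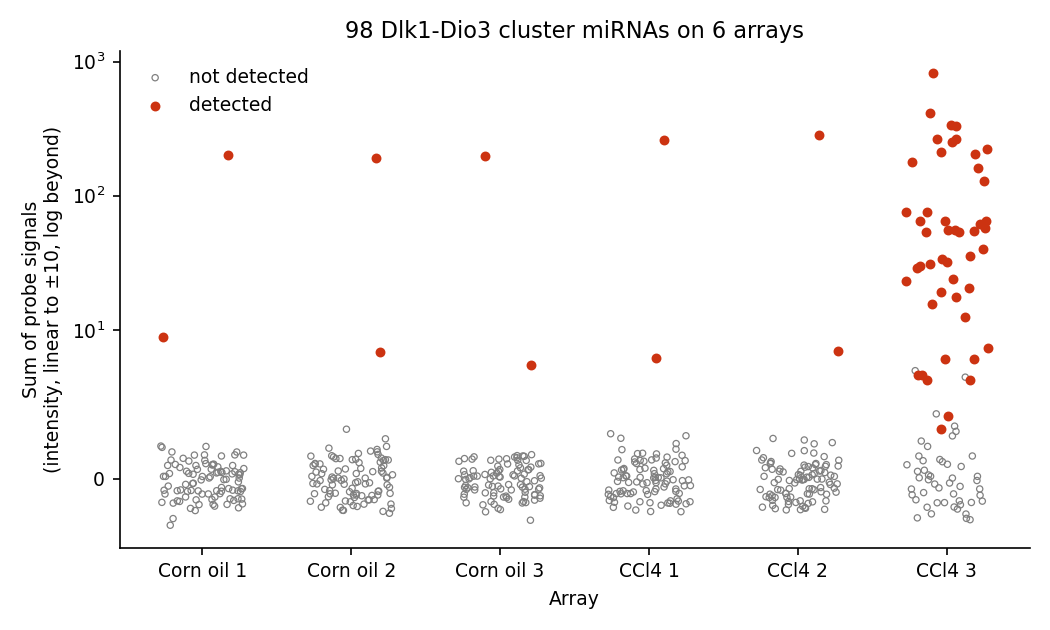
Sum of the probe signals (intensity, linear near 0 and logarithmic beyond) of each of the 98 cluster miRNAs on each of the 6 arrays, with detected miRNAs filled and undetected ones open. On 5 arrays 2 miRNAs are detected and the rest lie around 0, while 48 are detected on the array of CCl4 replicate 3, with total signals up to 818.

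The 46 signals on CCl4 replicate 3 covered a wide range. Their median was 46.9, with 12 over 100 and 9 under 10. For 29 of them more than 50% of the spots were well above background, for 18 of these all spots were, and for the other 17 of the 46 at most 50% were. On the other 5 arrays no more than 5.0% of the spots of any of the 46 passed. At the dim end, miR-433-5p had a signal of 3.28, miR-770-3p of 3.13 and miR-540-5p of 3.01, and at most 5.0% of their spots were well above background. These 3 lie close to the lowest detected signal on that array, 2.84. Just outside detection, the highest summed probe signals on CCl4 replicate 3 were 7.26 for miR-496a-3p and 6.82 for miR-323-3p. The 50 undetected miRNAs had a median of -0.20 there, and 17 of them were highest on that array.

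Read along the chromosome, the hairpins fall into 4 parts. The part next to Meg3 holds 6 hairpins, from miR-770, which lies within Meg3, to miR-665. It is followed by the 5 hairpins antisense to the Rtl1 coding sequence, miR-431, miR-433, miR-127, miR-434 and miR-136. In the RefSeq table these 5 and all but miR-770 of the first part, 10 hairpins together, lie within the annotated span of Rtl1. The next 2 hairpins, miR-341 and miR-370, lie within Rian. The last part, from miR-379 to miR-410, holds 37 hairpins if miR-496b is counted with it, the final 8 of which in gene order lie within Mirg. On CCl4 replicate 3 the software detected 334 of all 1247 miRNAs, or 26.8%. Of the cluster, 4 of 12 miRNAs of the first part (33.3%) and 8 of 10 antisense to Rtl1 (80.0%) were detected there. Within Rian it was 2 of 4 (50%), and in the last part 34 of 72 (47.2%). In every part the miRNAs detected there were detected on no other array, with miR-494-3p and miR-487b-3p as the exceptions.

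**Figure D2:**
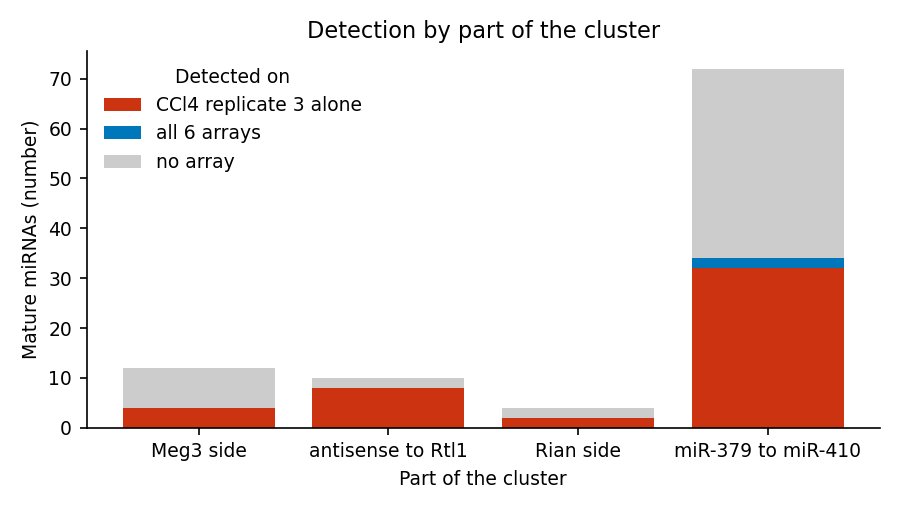
Number of mature miRNAs in each of the 4 parts of the cluster, stacked by the arrays on which they were detected. Detection on CCl4 replicate 3 alone occurs in all 4 parts, in 4, 8, 2 and 32 miRNAs, and the 2 miRNAs detected on all 6 arrays belong to the group between miR-379 and miR-410.

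The part antisense to Rtl1 had all 5 hairpins detected, with a summed signal of 1617. miR-127-3p, which directs cleavage of the Rtl1 transcript, had the highest signal of the whole cluster, 818 on CCl4 replicate 3 with an error of 64.8 as the software gives it. It was undetected on the other arrays, where its probes summed to 0.98, 0.89 and 1.17 in the corn oil group and to 1.71 and 1.73 for CCl4 replicates 1 and 2. The signal of CCl4 replicate 3 was thus the single high value, and corn oil livers and the other CCl4 livers lay at background together. The opposite arm of the hairpin, miR-127-5p, was undetected on all 6 arrays, with probes summing to 0.97 on CCl4 replicate 3.

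miR-434-3p, from the neighboring hairpin and likewise complementary to Rtl1, had a signal of 332 on CCl4 replicate 3. Its probes summed to 2.11, 2.06 and 0.99 on the corn oil arrays and to 1.22 and 1.16 on the others of the CCl4 group. The values of both groups overlapped at background level, and 1 of the 6 livers gave a signal. Its other arm, miR-434-5p, was detected on the same array at 61.0. miR-136-5p, at the end of the antisense part, had a signal of 266, against probe sums of 1.80, 2.17 and 1.47 in the corn oil group and of 1.99 and 1.41 in the CCl4 group. Its partner arm miR-136-3p reached 55.4. Of the other hairpins in this part, miR-431-5p had 53.5 and miR-433-3p 28.4, while miR-431-3p was undetected.

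The 6 hairpins next to Meg3 gave lower signals, 64.5 at most. 3 of them were undetected on both arms, miR-673, miR-493 and miR-665. The signal of miR-337-3p was 64.5 and that of its other arm miR-337-5p was 53.9, both on CCl4 replicate 3 alone. On the other arrays the probes of miR-337-3p summed to between 0.62 and 1.28 and those of miR-337-5p to between -1.84 and -0.99. The remaining signals of this part were those of miR-770-3p and miR-540-5p at the detection limit. In Rian, miR-341-3p was detected at 40.2 and miR-370-3p at 11.1, again on CCl4 replicate 3 alone, and both 5p arms were undetected.

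**Figure D3:**
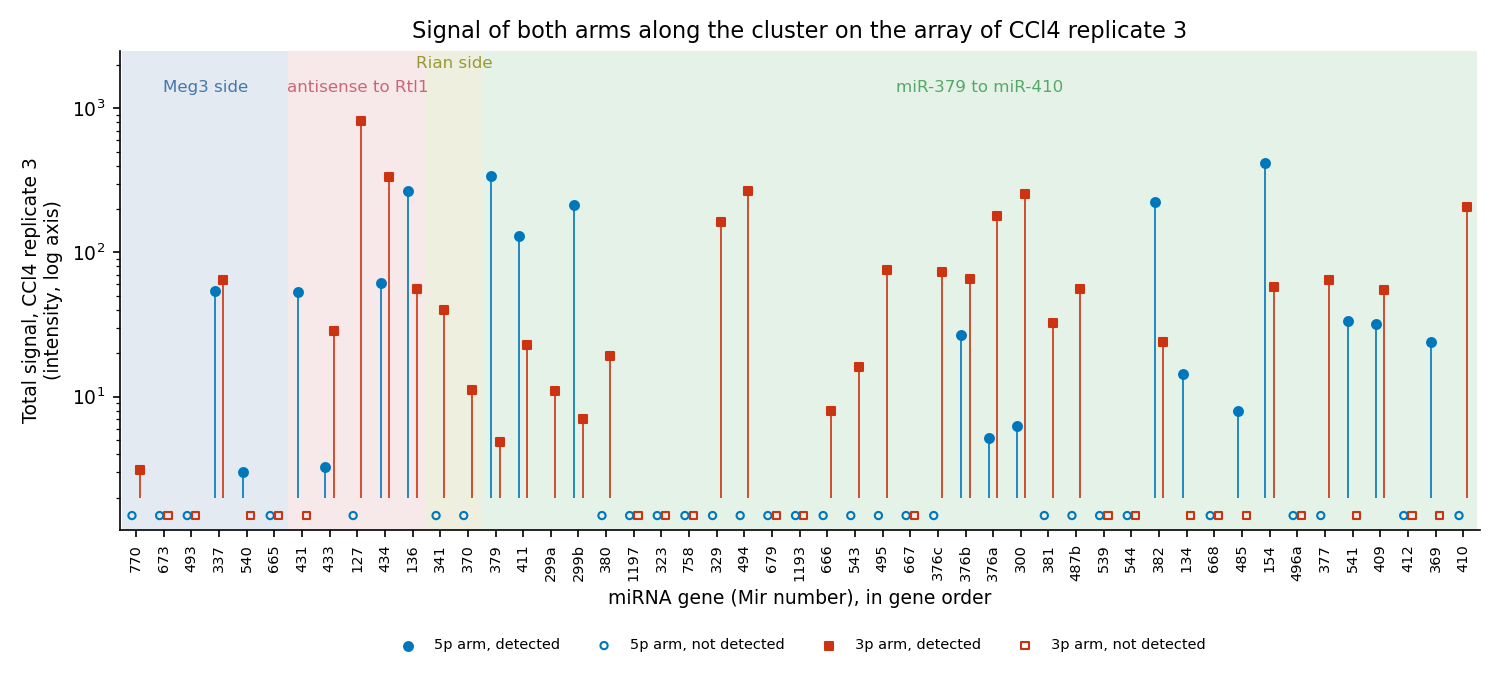
Total signal (intensity, log axis) on the array of CCl4 replicate 3 for the 5p and 3p arms of the hairpins with a place in the RefSeq gene order, from miR-770 to miR-410, with the 4 parts shaded and undetected arms drawn open at the bottom. Detected hairpins lie in all parts and along the whole length, with the highest signal at miR-127 and a run of undetected hairpins at miR-1197, miR-323 and miR-758.

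In the group between miR-379 and miR-410, 25 of the 37 hairpins were detected, and the 32 miRNAs found on CCl4 replicate 3 alone had a summed signal of 2808. miR-379-5p, the first miRNA of the group, had a signal of 338 there and negative or near-zero probe sums elsewhere, -0.77, -0.87 and -1.30 in the corn oil group and -0.18 and 0.42 for CCl4 replicates 1 and 2. miR-410-3p, the last one, had a signal of 206, and its probes summed to 0.31, -0.40 and -0.39 in the corn oil group and to 0.34 and 0.16 in the other CCl4 livers. Both ends of the group thus showed the same pattern over the 6 livers. miR-154-5p, the second highest of the cluster, had 418 on CCl4 replicate 3. The probes of miR-154-5p summed to 1.37, 1.63 and 1.53 on the corn oil arrays and to 1.39 and 2.43 on the other CCl4 arrays. Its partner miR-154-3p had 57.7.

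The other miRNAs of this group with high signals behaved alike. On CCl4 replicate 3 the total signal of miR-382-5p was 224, that of miR-299b-5p was 212 and that of miR-329-3p was 162. On the other 5 arrays their highest summed probe signals were -0.66, 3.33 and 2.36. The partner arm of miR-382-5p, miR-382-3p, was detected at 24.0 and that of miR-299b-5p, miR-299b-3p, at 7.03, while miR-329-5p was undetected. The partner arm of miR-379-5p, miR-379-3p, was detected at 4.87 and miR-410-5p was undetected. miR-134-5p, which limits the size of dendritic spines in neurons, had a signal of 14.4 with 37.5% of its spots well above background.

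Close copies were detected together in part. miR-300-3p had a signal of 252 and miR-381-3p, 3 bases apart, had 32.3. miR-376a-3p had 179 and miR-376b-3p, also 3 bases apart, had 64.9, and the third member of that family, miR-376c-3p, had 73.3. All 5 were undetected on the other arrays. Signals of such close copies cannot be told apart with certainty on hybridized probes. miR-376b-5p had 26.7, whereas miR-376c-5p, which differs from it by G19U alone, was undetected. miR-379-3p and miR-411-3p share their seed and differ by U10C and U22C, and they had 4.87 and 23.0. The sequence of miR-299b-3p, 18 bases long, is contained in that of miR-299a-3p, and they had 7.03 and 10.9.

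Of the 48 hairpins with both arms on the array, 13 had both arms detected on CCl4 replicate 3, 21 had 1 arm detected and 14 had none. Among the 21, the detected arm was the 3p arm in 15 and the 5p arm in 6. Over the whole cluster 29 of 49 3p miRNAs and 19 of 48 5p miRNAs were detected there, beside 26.8% of all miRNAs on that array. These arm counts rest on the detection flag, and 31 of the 48 detected cluster miRNAs had over 50% of their spots well above background. Some partner arms were dim. For miR-433-5p, miR-300-5p and miR-379-3p this share was 2.5%, 2.5% and 10.0%. The position of a hairpin and its highest signal were not related in a simple order, with a Spearman rho of 0.06 over the 35 detected hairpins, a description in which all points share 1 array. The hairpins without a detected arm were spread along the cluster, with 3 of them, miR-1197, miR-323 and miR-758, next to each other. By base composition, the 44 sequences detected on CCl4 replicate 3 alone had a median share of G and C of 45.5% (36.4% to 72.7%) and the 49 undetected ones 54.5% (23.8% to 76.2%). The median length was 22 bases in both.

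miR-494-3p was the exception in the cluster, as every spot of it was well above background on each of the 6 arrays. Its total signal was 202, 192 and 197 in the corn oil livers and 263, 283 and 267 in the CCl4 livers. All CCl4 values lay above all corn oil values, 271 ± 10.7 against 197 ± 4.82 (SD, n = 3 each), and CCl4 replicate 3 lay between the other livers of its group. That order of the groups held for 63.3% of the 166 miRNAs detected on all arrays, before any normalization, and for 64.5% without CCl4 replicate 3. After quantile normalization over these 166 miRNAs the log2 signals were 8.27, 8.27 and 8.11 in the corn oil group and 7.83, 8.20 and 6.30 in the CCl4 group. The direction was then the opposite one, with a log2 change of -0.77 (standard error 0.51), and CCl4 replicate 3 was the lowest. With each array scaled to the 75th percentile of the same miRNAs the change was -0.70, and without normalization it was 0.46, while the median change over all 166 miRNAs moved from -0.14 to 0.99. Relative to that median, miR-494-3p was on the lower side with and without normalization. Without CCl4 replicate 3 the change after quantile normalization was -0.20.

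miR-487b-3p was detected on all 6 arrays but was dim on 5 of them. The total signal of miR-487b-3p was 6.53, 6.02 and 5.34 in the corn oil livers and 5.40, 6.05 and 55.8 in the CCl4 livers. CCl4 replicates 1 and 2 lay within the corn oil range, and CCl4 replicate 3 alone was high. The share of its spots well above background was 42.5%, 32.5% and 12.5% in the corn oil group and 17.5%, 22.5% and 100.0% in the CCl4 group. By the share of spots, its level was thus clearly above background in 1 liver only. The looser rule of a total signal over 3 times its error was met by 2 cluster miRNAs on each of the other 5 arrays. The log2 changes that follow rest on values near background in the other livers and are not estimates of a fold. After quantile normalization the change was -0.13 (standard error 0.61), and it was -0.69 without CCl4 replicate 3. With more miRNAs in the normalization it was -0.86 (those detected on all arrays of 1 group) and -0.93 (no filter), and without normalization it was 1.04.

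In the limma fit over the 166 miRNAs detected on all 6 arrays, 20 were called, which required more than a 2-fold change and an adjusted p (Benjamini-Hochberg) under 0.05. The calls were 12.0% of those tested, 7.23% higher and 4.82% lower in the CCl4 group. miR-494-3p and miR-487b-3p were the only cluster miRNAs in this fit, and 0 of the 2 were called, nor did either pass at an unadjusted p under 0.05. For 0 of the 2 were the normalized values of the groups free of overlap, beside 39.2% of the 166. Without CCl4 replicate 3 the fit called 28 of the 166 miRNAs (16.9%) and again 0 of the 2. miR-487b-3p then passed the adjusted p, but not the 2-fold change, and its groups did not overlap, which held for 65.1% of the 166. The other 96 cluster miRNAs were left out by the requirement of detection on all arrays. A further limma fit went without that filter, with undetected signals set to the lowest detected one of each array. In it 0 of the 98 were called and 0 passed an unadjusted p under 0.05. Over all 1247 miRNAs that fit called 6, and 66 passed the unadjusted p. Most of the cluster values were set to the lowest signal, and the cluster was chosen with its detection known. The outcome was thus largely fixed beforehand, and nothing is concluded from it. miR-494-3p was also the only cluster miRNA among the 111 in the normalized values that the authors deposited.

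**Figure D4:**
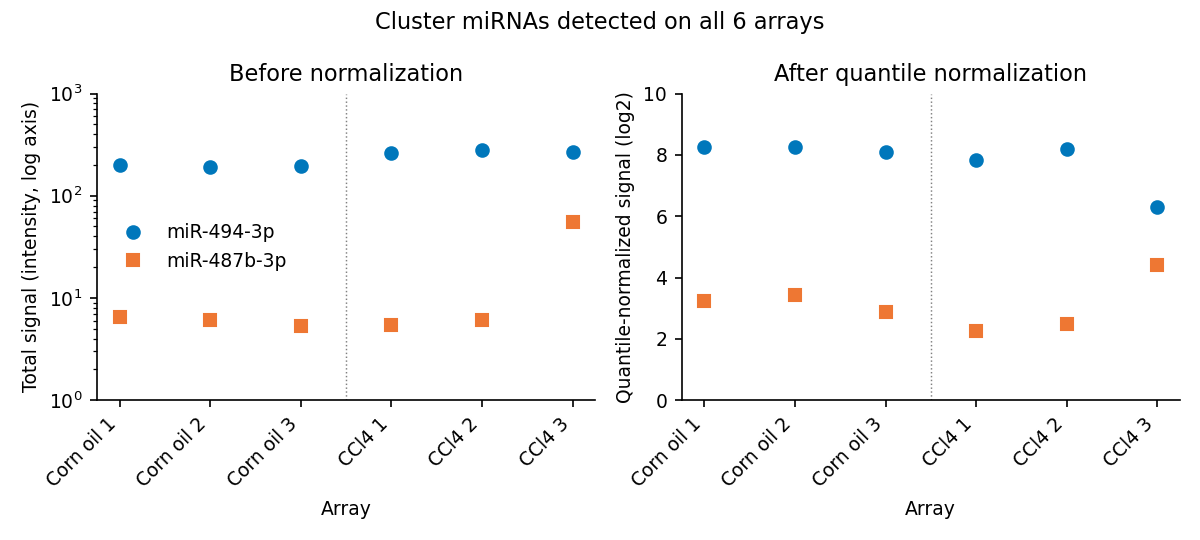
miR-494-3p and miR-487b-3p on the 6 arrays, as total signal (intensity, log axis) before normalization and as log2 signal after quantile normalization. Before normalization miR-494-3p is higher in all CCl4 livers than in all corn oil livers, and after it CCl4 replicate 3 is the lowest at 6.30, while miR-487b-3p is high only in CCl4 replicate 3.

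The same domain holds further miRNAs whose numbers are not among the 46. Of 14 listed miRNAs of this kind on the array, from miR-1188, miR-3070, miR-3071, miR-3072, miR-432, miR-453, miR-654 and miR-882, 13 were undetected on all 6 arrays. They include both arms of miR-3071, whose gene overlaps Mir136 on the other strand. The exception in this list was miR-3072-5p, with signals of 6.02, 4.94 and 5.56 in the corn oil group and 21.1, 16.9 and 25.4 in the CCl4 group. Its CCl4 values all lay above its corn oil values before normalization, which held for 63.3% of the 166 miRNAs detected on all arrays. Before normalization CCl4 replicate 3 was also close to the others of its group. After quantile normalization it was lower, at 3.39 on the log2 scale against 4.08 and 4.04 for CCl4 replicates 1 and 2. The corn oil livers then lay at 2.92 to 3.06. In the corn oil livers the share of its spots that passed the background was 25.0% or less. The log2 changes that follow rest on these control values near background and are not estimates of a fold. In the limma fit its log2 change was 0.87 (standard error 0.23, adjusted p = 0.0650), and it was not called. Without CCl4 replicate 3 the change was 1.00 (limma adjusted p = 0.00183), which was a call. Over the alternatives the change lay between -0.06 (no filter) and 1.92 (no normalization), and the limma adjusted p between 0.00181 and 0.945.

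The list left out miR-1906, miR-3544 and miR-1247, which the table also places between Dlk1 and Dio3 and which were added after their values were seen. Both arms of miR-3544 and of miR-1247 were undetected on all arrays. miR-1906 was detected on all 6, with signals of 10.8, 11.2 and 11.2 in the corn oil group and 15.3, 15.3 and 37.2 in the CCl4 group. The CCl4 values lay above the corn oil values before normalization, with the highest again on CCl4 replicate 3, and after it the change was -0.19 (standard error 0.14, limma adjusted p = 0.422). The mature sequence of miR-1906 is also encoded by a second gene, on chromosome X, so that its signal is not specific to the domain.

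Among 10 miRNAs of other imprinted domains, 6 were undetected on all arrays. miR-335-5p, from the Mest domain, was detected on CCl4 replicate 3 alone with a signal of 39.3. miR-296-5p, from the Gnas domain, was detected on all arrays, at 17.9, 18.7 and 15.5 in the corn oil group and at 34.4, 33.8 and 55.2 in the CCl4 group. miR-483-3p, from Igf2, was instead detected on CCl4 replicates 1 and 2, at 4.37 and 4.59, and not on CCl4 replicate 3. The other imprinted domains therefore did not share 1 pattern of detection with the Dlk1-Dio3 cluster.

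Lists of miRNAs that mark cell types were set beside the cluster, as the array of CCl4 replicate 3 differed in these as well. The hepatocyte list (5 of 5 on the array) summed to between 14955 and 20847 on the other 5 arrays and to 2750 on CCl4 replicate 3. miR-122-5p, the main miRNA of hepatocytes, had 17855, 16613 and 18345 in the corn oil group and 13110, 15544 and 2158 in the CCl4 group, and miR-122-3p was undetected on CCl4 replicate 3. The marker of the labelled tissue was thus present in all livers and lowest in the one with the cluster signals.

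The endothelial list (2 of 2) summed to between 563 and 824 on the other arrays and to 3732 on CCl4 replicate 3, and the red cell list (2 of 3 on the array) to between 315 and 754 and to 2135. The mesenchymal list (4 of 5 on the array) ranged from 60.1 to 507 and was 920 on CCl4 replicate 3, and the immune list (5 of 5) ranged from 63.8 to 445 and was 395. The last of these lay within the range of the other arrays and the others lay above it. After division by the 75th percentile of each array, the mesenchymal and red cell lists also lay within that range, at 1.27 (0.394 to 1.83) and 2.95 (1.42 to 4.95), while the endothelial list remained above it, at 5.16 (2.97 to 4.19). The neural and endocrine list (5 of 5) summed to between 9.65 and 13.5 on the other arrays and to 1760 on CCl4 replicate 3, where 3 of the 5 were detected, and it was also above the range after that division, at 2.43 (0.0446 to 0.0668). Within it, miR-375-3p, a miRNA of endocrine cells, had 769 and was undetected elsewhere, and miR-7a-5p had 985 against 9.65 to 13.5 elsewhere. miR-124-3p, a defining miRNA of neurons, had 6.37, and both arms of miR-9, a miRNA of neural progenitors, were undetected on all arrays, as were the 3 miRNAs of the muscle list. The part of any of these cell types in the signals of the cluster was not tested.

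**Figure D5:**
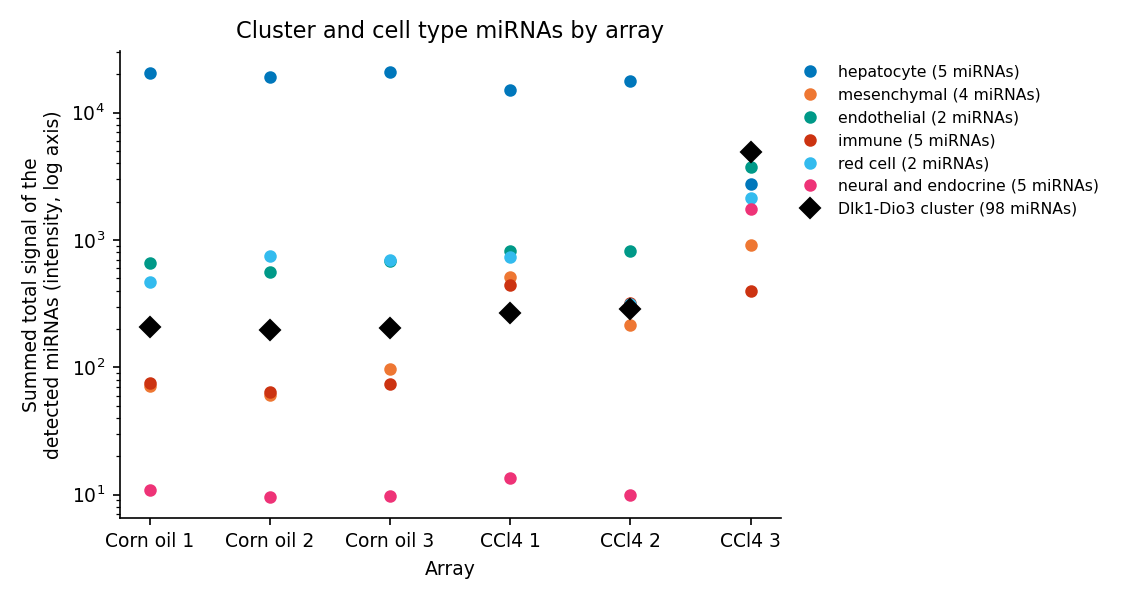
Summed total signal (intensity, log axis) of the detected miRNAs of the cluster and of 6 cell type lists on each of the 6 arrays. On CCl4 replicate 3 the cluster rises to 4923 and the neural and endocrine list to 1760, while the hepatocyte list is at its lowest, 2750. The muscle list is not drawn, as it was undetected throughout.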

How the data were processed

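RNA from the livers of 3 CCl4-treated and 3 corn oil-treated mice was hybridized to 1-color Agilent arrays with 49880 spots for 1247 mouse miRNAs, 40 spots each. The authors extracted the scanner output with Feature Extraction 11.0.1.1, and its values are deposited as intensities, background subtracted and not normalized between arrays. A second table that the authors deposited holds quantile-normalized intensities of 111 miRNAs and was used as an alternative. The array design names the mm9 build and the RefSeq table GRCm38.p6, so no coordinates are given.

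The cluster miRNAs, the cell type lists and the related miRNAs were chosen with earlier results of these data known. Groups and replicate numbers came from the labels. Total signals and detection flags were read per miRNA, and no spot was saturated. The comparison took the 166 miRNAs that every array detected. Their log2 total signals were quantile normalized, and a limma model (version 3.58.1, R 4.3.3; lmFit, eBayes) with a single treatment term was fitted. Calls needed a change over 2-fold and an adjusted p (Benjamini-Hochberg) under 0.05. The fit was tested on simulated data in which all arrays had the same SD, the median of the corn oil group. That simulation held no outlying array, so it does not show how the fit behaves with CCl4 replicate 3. Plots and tables came from Python 3.11.15, pandas 2.3.3 and matplotlib 3.10.9.

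The text names the miRNAs used as markers of the cluster (miR-127-3p, miR-379-5p, miR-434-3p, miR-410-3p), those detected outside CCl4 replicate 3, the 12 with the highest signals there with their other arms, the brightest of each part and the 3 dimmest. Others were named after their values were seen. Alternatives changed the detection rule, the signal, the normalization or the filter, used the values of the second table, added the replicate number as a block, or left out each array. The unreplaced probe sums, the fit without CCl4 replicate 3 over the miRNAs detected on the other 5 arrays, and the division of the summed lists by the 75th percentile were chosen after seeing the data. The number of arrays limits the precision of all values.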

Additional observations from a re-analysis of the deposited data

Results flagged for a closer look

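The main comparison used miRNAs detected on all 6 arrays. Outside it, 46 cluster miRNAs were detected on CCl4 replicate 3 and on none of the 3 corn oil arrays, in values that the comparison did not use. These detections were not scaled for the higher signals of that array. For 29 of the 46, most spots were well above background. After scaling to the 75th percentile, these 29 were divided by a floor. It was the lowest such signal of each other array, taken where highest. The median ratio was 1.29 (0.379 to 16.2), and 6 of the 29 lay below the floor. The rest of the 46 were not compared with it. None of the 46 was detected on CCl4 replicates 1 and 2 either, so the detections are those of 1 liver.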

How the results depend on the processing

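With detection defined as over 50% of spots well above background, the cluster miRNAs detected were 1 on each corn oil array and on CCl4 replicates 1 and 2, and 31 on CCl4 replicate 3, 30 of them there alone. Defined as a signal over 3 times its error, they were 2 on each of those arrays and 48 on CCl4 replicate 3, 46 of them there alone. With 1 array left out, the count on CCl4 replicate 3 alone was 0 without that array and 46 without any other. The log2 difference of the summed signals lay between 0.46 and 2.56 with 1 array left out. The limma fit called 20 miRNAs. It called 32 with detection on all arrays of 1 group, 6 without a filter, 12 in the deposited values, and between 5 and 28 with 1 array left out (5 without CCl4 replicate 1 or corn oil replicate 2, 28 without CCl4 replicate 3). Without normalization the change was 0.46 for miR-494-3p and 1.04 for miR-487b-3p. With 1 array left out it lay between -1.16 and -0.20 for miR-494-3p and between -0.69 and 0.28 for miR-487b-3p. In their deviations from the group means, same-numbered livers of the groups correlated at -0.18, 0.11 and 0.03. Differently numbered livers correlated at between -0.27 and 0.24. With 3 arrays per group, these values cannot settle whether the replicate numbers pair the samples. With the replicate number as a block 6 miRNAs were called, with changes of -0.77 and -0.13 for the cluster miRNAs. The signals near the lowest detected level, such as that of miR-540-5p, and the levels of all undetected cluster miRNAs were not measurable at this signal over background.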
